A study of Arabidopsis thaliana with 6 samples.

Results

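The PIP1 genes are 1 of the 2 subfamilies of plasma membrane aquaporins of Arabidopsis thaliana and have 5 members. They were taken by gene identifier as PIP1A (PIP1;1, AT3G61430), PIP1B (PIP1;2, AT2G45960), PIP1C (PIP1;3, AT1G01620), PIP1;4 (AT4G00430) and PIP1;5 (AT4G23400). Of the 5, 4 had a row among the 2896 loci of the deposited comparison, and PIP1;5 had none. The subfamily was chosen from a comparison whose values in WT and pkl were already known, so its levels and falls are given as a description.

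Seedlings, 14 days old and grown in long days, had been profiled by RNA sequencing as 3 wild-type (WT) libraries and 3 pkl libraries. The mutated gene, PICKLE (PKL), codes for a CHD3-type chromatin remodeler, and the comparison asks which transcript levels depend on it. The labels name no pkl allele, no accession of the wild type and no other mutation or treatment, and do not say whether plants were pooled or the libraries of a genotype came from separate cultures, so the authors' p-values may measure technical spread alone. Each locus carried 1 level per genotype in FPKM, a level scaled to transcript length and to the mapped fragments of a library, which combined the libraries of that genotype. No spread between libraries can therefore be given, and how deeply each library was sequenced is unknown.

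Aquaporins are membrane channels that let water pass along an osmotic gradient. Plant plasma membranes hold a PIP1 and a PIP2 subfamily, whose products assemble into tetramers. PIP1 proteins are known, best from maize, to reach the plasma membrane poorly alone and to move there with a PIP2 partner. Several members also pass small uncharged solutes such as carbon dioxide or hydrogen peroxide.

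The sequences below show how alike the members are and where their bases differ, which bears on counting their transcripts apart. Each is a stretch of 57 coding bases around the first NPA box, the asparagine-proline-alanine turn that lines the water pore. They were read from the RefSeq annotation of TAIR10.1, 5′ to 3′ on the coding strand, at coding bases 316 to 372 of PIP1A, PIP1B and PIP1C and 319 to 375 of the other two. Capitals mark bases that differ from PIP1C.
PIP1C: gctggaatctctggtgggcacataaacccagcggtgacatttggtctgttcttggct
PIP1;4: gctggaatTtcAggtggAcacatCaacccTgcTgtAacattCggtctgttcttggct
PIP1A: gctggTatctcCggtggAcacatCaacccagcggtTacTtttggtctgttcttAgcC
PIP1B: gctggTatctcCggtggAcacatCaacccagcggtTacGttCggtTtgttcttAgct
PIP1;5: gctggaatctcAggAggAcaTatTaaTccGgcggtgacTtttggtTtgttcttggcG

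All 5 stretches encode the same 19 residues, with 0 residues unlike PIP1C, yet they differ from PIP1C at 8 bases in PIP1A and PIP1;4, 9 in PIP1B and 10 in PIP1;5. Over the whole protein, the 10 pairs of members were 90.9% to 97.2% identical. Their coding sequences were 79.5% to 87.6% identical. The 40 pairs of a PIP1 with a PIP2 gene were 64.7% to 70.4% identical in protein. Closest to each other were PIP1A with PIP1B, at 97.2% in protein and 87.6% in coding sequence, and PIP1C with PIP1;4, at 97.2% and 85.0%.

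**Figure D1:**
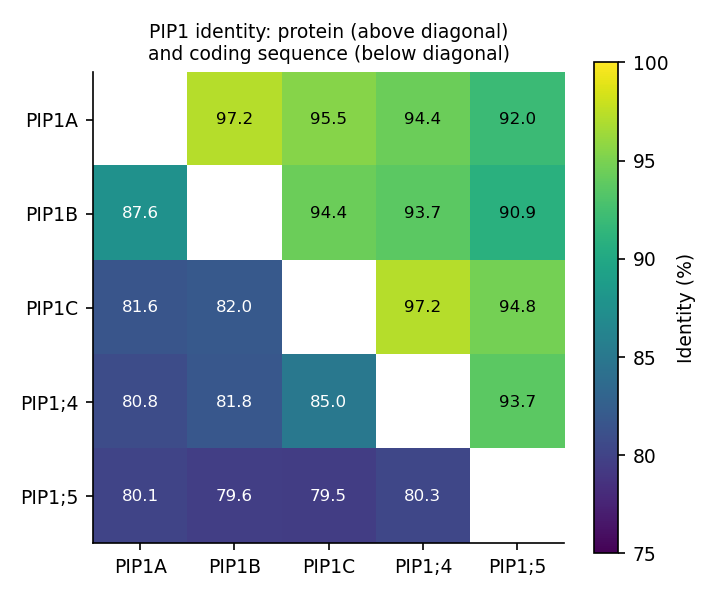
Identity in percent between the 5 PIP1 members, for proteins above the diagonal and for coding sequences below it. The closest pairs are PIP1A with PIP1B and PIP1C with PIP1;4, and the coding sequences differ more than the proteins.

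The differences between the coding sequences bear on how reads could be assigned. The longest run of identical bases between 2 members was 41, shared by PIP1A and PIP1B. In each member's first annotated transcript, 0 windows of 50 bases recurred exactly in an annotated transcript of another gene. Only exact matches were sought, so reads aligned with mismatches are not covered. No member had a near-identical copy, taken as 95% identity over 80% of the coding sequence. The length of the reads and the way multiply aligned reads were counted are not given in the sources used here.

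The members have 1 gene structure in common. Each has 4 coding exons, of which the last 3 are 296, 141 and 96 bases long in every member. The first is 328 bases long in PIP1A, PIP1B and PIP1C and 331 in PIP1;4 and PIP1;5. The introns differ, and the first one runs from 157 bases in PIP1C to 303 in PIP1;4. Each predicted protein has 286 or 287 residues and holds 2 NPA boxes.

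In the seedlings, PIP1B had the highest transcript level of the 4 listed members in both genotypes. PIP1B (chromosome 2, positions 18910295 to 18911982 of the TAIR10 build), an isoform with known roles in the water conductance of roots and in the passage of carbon dioxide in leaves, went from 546 FPKM in WT to 455 in pkl. It was 1.20-fold lower in pkl and kept 83.4% of its WT level. Its p-value in the authors' deposited table was 0.00715 and its q-value 0.0266. PIP1B had the smallest fall of the listed members and was the one nearest to the threshold of 0.05 for q that the table obeys.

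PIP1C (chromosome 1, positions 225665 to 227302), a water channel isoform, was nearly as high as PIP1B in WT, at 487 FPKM, and reached 210 FPKM in the mutant. The level in pkl was thus 43.1% of that in WT, a 2.32-fold fall, the largest of the listed members. PIP1A (chromosome 3, positions 22733309 to 22735335), the isoform closest to PIP1B, went from 401 FPKM in WT to 190 in pkl, 2.11-fold lower. PIP1C and PIP1A lost similar parts of their level, and their log2 fold changes in the authors' deposited table were -1.22 and -1.08.

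PIP1;4 (chromosome 4, positions 185450 to 187627), an isoform known to carry hydrogen peroxide into the cell in immune responses, was the lowest listed member. Its level went from 95.02 FPKM in WT to 68.5 in pkl, a 1.39-fold fall that left 72.1% of the WT level. PIP1A, PIP1C and PIP1;4 all had a q-value of 0.000338 in the authors' deposited table, with a p-value of 5e-05. That p is the smallest the table lists, and 1428 loci (49.3%) have it, so these q-values do not rank the members. No direction or level is given for PIP1;5 or any other gene without a row, which may have been higher, no different by the test or not tested.

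**Figure D2:**
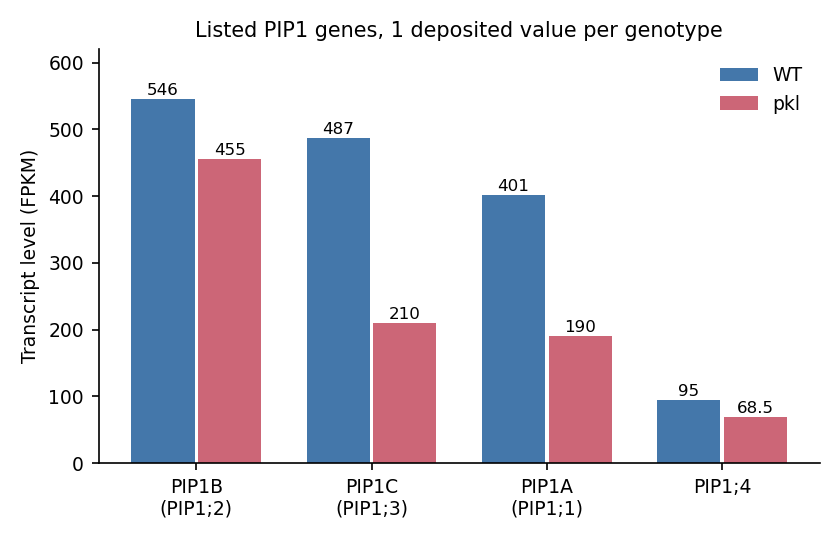
Transcript level in FPKM (y axis) of the 4 listed PIP1 genes in WT and pkl, 1 deposited value per genotype and no error bars because no value per library was used. The level of PIP1C drops from 487 to 210 FPKM and that of PIP1A from 401 to 190 FPKM, while that of PIP1B drops from 546 to 455 FPKM.

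The order of the levels was PIP1B, PIP1C, PIP1A and PIP1;4 in both genotypes. Whether neighbours in this order differ beyond their spread could not be tested. The distances between them were not alike in the genotypes. PIP1B exceeded PIP1C 1.12-fold in WT and 2.17-fold in pkl, and it exceeded PIP1A 1.36-fold in WT and 2.39-fold in pkl. The ratio of PIP1C to PIP1A moved little, from 1.21 to 1.10.

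The listed PIP1 transcripts therefore had another make-up in pkl. PIP1B made up 35.7% of their summed FPKM in WT and 49.3% in pkl. The share of PIP1C went from 31.9% to 22.7% and that of PIP1A from 26.2% to 20.6%. PIP1;4 stayed a minor part, at 6.21% in WT and 7.41% in pkl. The sum of the 4 went from 1529 FPKM in WT to 924 in pkl, a fall of 605 FPKM or 1.66-fold. PIP1A and PIP1C accounted for 80.7% of that fall, PIP1B for 14.95% and PIP1;4 for 4.39%. The sum holds only members listed as lower, so its direction was fixed in advance.

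**Figure D3:**
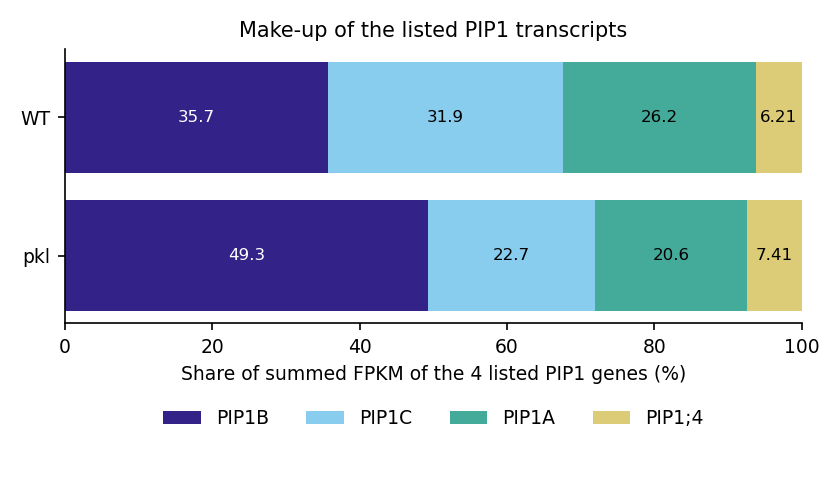
Share in percent (x axis) of each gene in the summed FPKM of the 4 listed PIP1 genes, for WT and pkl. The part of PIP1B is 35.7% in WT and 49.3% in pkl, and the parts of PIP1C and PIP1A are smaller in pkl.

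Each of the closest pairs by sequence held a larger and a smaller fall. The pair PIP1A and PIP1B had 1 member with a fall of 2.11-fold and 1 with a fall of 1.20-fold. The pair PIP1C and PIP1;4 likewise had 1 member at 2.32-fold and 1 at 1.39-fold. Between PIP1A and PIP1;4, the members on either side of the gap, the log2 fold changes were 0.60 apart. With 1 value per genotype, these differences between members could not be tested.

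The table was 1 side of the comparison, since all of its 2896 loci were lower in pkl and had q-values of up to 0.0499 in the authors' deposited table. These loci are 14.8% of the 19554 tests that the p-values and q-values imply, beside 4 of the 5 PIP1 genes. Loci at least 2-fold lower are 3.83% of those tests, beside PIP1A and PIP1C, and loci with a q-value under 0.01 are 11.0%, beside 3 members. The subfamily was chosen with these values known, so nothing is read from its share. PKL itself (AT2G25170) went from 19.2 FPKM in WT to 6.79 in pkl, 2.84-fold lower.

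The PIP1 genes were placed among all listed loci by level and by fold. PIP1B, PIP1C and PIP1A ranked 89, 96 and 115 of the 2896 loci by WT level, and PIP1;4 ranked 401, where the median locus had 16.8 FPKM. The median fall of the 4 was 1.71-fold, against 1.52-fold over all listed loci and 1.41-fold over the 706 loci of at least 50 FPKM in WT. The fall of PIP1C was larger than that of 82.3% of all listed loci, and that of PIP1A larger than that of 77.8%. The falls of PIP1;4 and PIP1B exceeded those of 35.1% and 3.59% of the loci. Among the 706 loci of at least 50 FPKM in WT, PIP1C, PIP1A, PIP1;4 and PIP1B ranked 78, 101, 373 and 652 by size of fall.

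**Figure D4:**
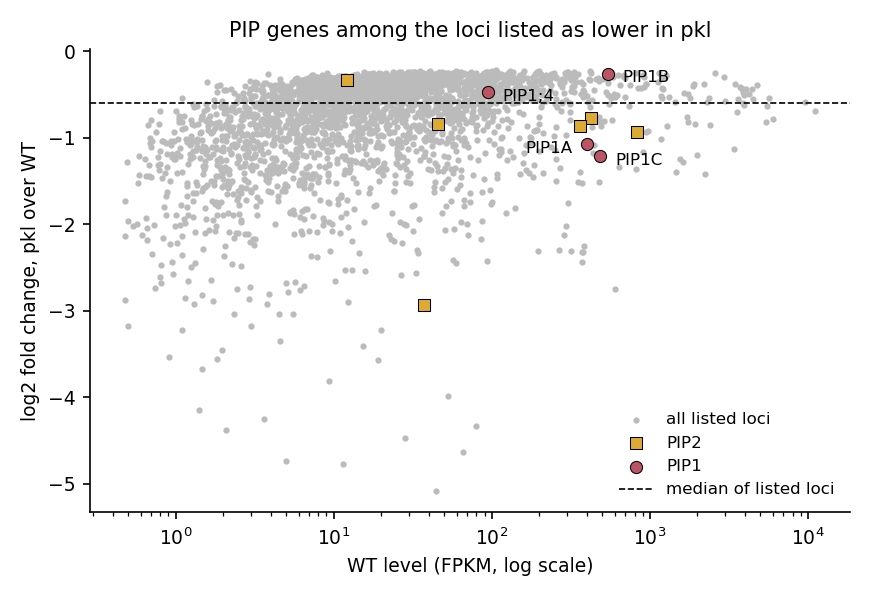
Level in WT (x axis, FPKM on a log scale) and log2 fold change of pkl over WT (y axis) for all 2896 listed loci in grey, with the 4 PIP1 genes as circles and the 6 listed PIP2 genes as squares. PIP1A and PIP1C lie below the dashed median of all listed loci, and PIP1B and PIP1;4 lie above it.

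The PIP2 genes, whose products are the partners of PIP1 proteins in tetramers, were listed for 6 of 8 members (beside 14.8% of all tests), with a median fall of 1.81-fold. PIP2;4 had the largest, from 37.2 to 4.89 FPKM, 7.61-fold. PIP3, the highest of the 6 listed PIP2 genes, fell from 833 to 435 FPKM, 1.92-fold. PIP2B fell from 363 to 199 FPKM and RD28 from 45.5 to 25.5 FPKM. RD28 shares its locus with AT2G37195, so its value is that of the locus. The coding sequences of PIP2B and RD28 are 94.8% identical, and whether they shared reads was not tested. PIP2A fell 1.71-fold from 423 FPKM, and PIP2;8 fell 1.25-fold from 12.2 FPKM. The summed FPKM of the listed PIP2 loci was 1714 in WT and 921 in pkl. The ratio of the listed PIP1 sum to the listed PIP2 sum was 0.892 in WT and 1.003 in pkl, and the difference between these ratios could not be tested. Both sums hold only genes listed as lower and leave out PIP1;5, PIP2;5 and PIP2;6. The ratio is therefore not that of the whole subfamilies in either genotype.

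In the vacuolar membrane, 6 of 10 tonoplast intrinsic protein (TIP) genes were listed (beside 14.8% of all tests), with a median fall of 1.75-fold. The largest were those of TIP2;3, from 65.5 to 2.63 FPKM, and TIP2;2, from 268 to 54.5 FPKM. TIP2 and DELTA-TIP, the highest of the listed TIP genes, fell 1.81-fold and 1.70-fold. Among the NOD26-like intrinsic protein (NIP) genes, 3 of 9 were listed (33.3%, beside 14.8% of all tests), with a median fall of 1.76-fold. They were NLM1 and NIP1;2 at 24.1 and 14.8 FPKM in WT, and NIP7;1 at 0.537 FPKM. None of the 3 small basic intrinsic protein (SIP) genes was listed. Over the whole aquaporin family, 19 of 35 genes were listed (54.3%, beside 14.8% of all tests), and the PIP1 genes made up 18.4% of their summed FPKM in WT and 19.9% in pkl.

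**Figure D5:**
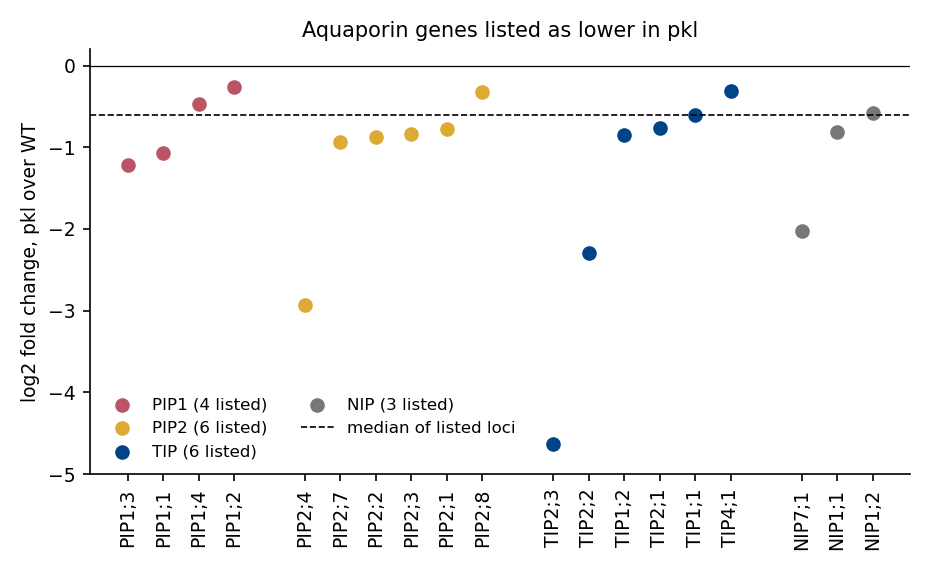
Log2 fold change of pkl over WT (y axis) of each listed aquaporin gene, ordered by size within the PIP1, PIP2, TIP and NIP subfamilies, with the median of all listed loci dashed. The PIP1 genes run from -1.22 for PIP1;3 to -0.26 for PIP1;2. The PIP2 genes reach -2.93 through PIP2;4 alone, and the others run from -0.94 for PIP2;7 to -0.33 for PIP2;8. The TIP genes reach -4.64 for TIP2;3 and -2.30 for TIP2;2, and the others run from -0.85 for TIP1;2 to -0.31 for TIP4;1.

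Genes whose products act on plasma membrane aquaporins were listed at a share near that of all tests. Of 11 genes whose products bind, move, phosphorylate or degrade PIP proteins, 2 were listed, 18.2% beside 14.8% of all tests. BCA4, a carbonic anhydrase that partners a PIP2 protein in guard cells, fell from 185 to 145 FPKM, 1.28-fold. RMA1, an E3 ubiquitin ligase of a family that targets PIP2 proteins, fell 1.98-fold from 38.5 FPKM at a locus shared with AT4G03505. The syntaxins SYP121 and SYP61, which deliver PIP2 proteins to the plasma membrane, and the kinases OST1 and BAK1, which act on them in guard cells, were not listed. Of 11 plasma membrane proton pump genes 3 were listed, 27.3% beside 14.8% of all tests. HA3 fell 1.75-fold from 37.9 FPKM, and HA5 and HA7 fell 1.47-fold and 1.44-fold.

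Genes with the most similar levels were sought among 1318 loci of 1 gene with a symbol, by the distance between log2 FPKM in both genotypes. For PIP1C the nearest were the dehydrin gene COR47, from 438 to 194 FPKM at a distance of 0.19, and then PIP1A and PIP2A, each at 0.31. For PIP1A they were COR47 at 0.13, PIP2B at 0.16 and the antenna gene LHCB2.3 at 0.31. For PIP1B they were the copper chaperone gene CCH at 0.0033, the ethylene synthesis gene EFE at 0.11 and the 14-3-3 gene GRF6 at 0.12. For PIP1;4 they were AIR1 at 0.040, the cold-regulated membrane protein gene COR413-PM2 at 0.056 and the purine permease gene PUP14 at 0.085. A distance over 2 values describes level and fold alone.

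Some markers of tissues that express aquaporins were listed in the same table, and those without a row have no known direction. The sums and medians given for markers cover listed markers alone. All of these are lower in pkl by the listing, so the direction of each sum was fixed in advance. Of 23 root markers 10 were listed (43.5%, beside 14.8% of all tests), with summed FPKM of 176 in WT and 101 in pkl and a median fall of 1.93-fold. They included SKOR, a potassium channel of the root stele, at 3.70-fold from 2.31 FPKM in WT. The thalianol pathway gene CYP705A5 fell 3.30-fold from 8.14 FPKM, and the iron transporter gene IRT1 2.04-fold from 1.96 FPKM. All were low in WT and among the larger falls, as the listed root markers ran from 1.39-fold to 3.70-fold. The marker at 1.39-fold shares its locus with another gene, so its value, also in the sum, is that of the locus. Of 8 markers of the vasculature, where PIP1 genes are also known to be expressed, 6 were listed (beside 14.8% of all tests). Their summed FPKM was 259 in WT and 142 in pkl, and their median fall was 1.81-fold. The largest falls were those of the phloem sucrose transporter gene SUC2 at 2.60-fold and SWEET12 at 2.04-fold. Next came the xylem peptidase gene XCP1 at 1.96-fold and the phloem regulator APL at 1.66-fold. The smallest fall of a listed vascular marker was 1.53-fold.

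Of 10 leaf mesophyll markers 5 were listed (beside 14.8% of all tests), with summed FPKM of 14650 in WT and 8795 in pkl. That sum leaves out the markers without a row, so its direction too was fixed. The median fall of the 5 listed leaf markers was 1.545-fold. These markers were LHCB2.1 at 2.43-fold, LHCA1 at 1.72-fold, CAB2 at 1.55-fold, SHM1 at 1.46-fold and GLDP1 at 1.28-fold. Root and leaf markers were thus both among the listed loci. The part of these tissues in the PIP1 levels was not tested. In RNA from seedlings, fewer cells of a type and less RNA per cell cannot be told apart.

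Of the 20 protein-coding genes that lie within 2 places of a PIP1 gene on its chromosome, 0 were listed, beside 14.8% of all tests. How many of the 20 were tested is unknown. PIP1A and PIP1B have related neighbours: SK21 lies 6808 bases from PIP1A and SK20 lies 1959 bases from PIP1B. PIP1B also has CYP86A8 at 112 bases, and PIP1C has CYP86A4 at 4378 bases. The levels of these neighbours were not analysed here.

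The promoters of PIP1C and PIP1A, the members with falls of over 2-fold, are shown as the 250 bases before the annotated start in TAIR10.1. That of PIP1C lies at chr1:227544-227793 on the minus strand and that of PIP1A at chr3:22732993-22733242 on the plus strand. Capitals mark matches on either strand to any of 6 short motifs searched.
PIP1C: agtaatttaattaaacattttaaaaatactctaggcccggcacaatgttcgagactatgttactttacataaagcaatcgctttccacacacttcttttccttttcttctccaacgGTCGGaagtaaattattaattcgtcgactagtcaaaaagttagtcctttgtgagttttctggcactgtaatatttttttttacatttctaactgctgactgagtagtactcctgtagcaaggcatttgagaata
PIP1A: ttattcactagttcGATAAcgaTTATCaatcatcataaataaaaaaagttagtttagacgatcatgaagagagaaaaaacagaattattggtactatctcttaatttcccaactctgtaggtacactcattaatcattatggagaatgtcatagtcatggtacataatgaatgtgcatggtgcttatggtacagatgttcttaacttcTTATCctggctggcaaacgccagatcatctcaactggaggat

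These promoters have few motif matches in common. The I-box core GATAA had 3 matches in PIP1A, 3 in PIP1B, 2 in PIP1;5 and 0 in PIP1C and PIP1;4, and 54.9% of the 27443 promoters of the same length hold it. The core of the dehydration-responsive element, CCGAC, had its 1 match in PIP1C and occurs in 12.0% of all promoters. The letters TATAAA, those of a TATA box, were found in PIP1B, PIP1;4 and PIP1;5, against 47.3% of all. Matches were counted anywhere in the window and on either strand, so these need not be working TATA boxes. The G-box CACGTG (6.5% of all promoters), the ABRE core ACGTG, which lies within the G-box (22.9%), and the telo-box AAACCCTA (4.5%) had 0 matches in the 5 windows. The I-box core was thus found in 1 of the 2 members with a fall of over 2-fold and in 1 of the 2 with smaller falls.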

How the data were processed

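Total RNA of seedlings had been sequenced on Illumina libraries, per the labels. The tools named were TopHat, Cufflinks 2.1.1 and Cuffdiff 2.1.1 with the TAIR10 build, per the submitters' processing notes. The deposited table held FPKM with 1 value per genotype, per the file headers. It also held the authors' log2 fold change, which matched the log2 of pkl over WT to within 1.2e-05. The p-value and q-value of each locus were the authors' own, as was the deposited test statistic, a signed score that was not used.

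Folds were computed as WT over pkl FPKM. The number of tests was the whole number from 2896 to 38999 that made all ranks implied by p over q whole, to within 0.017 for 19554 against 0.311 for 19555. It was recovered in 10 of 10 tables of simulated data, for which a narrower range was tried. Larger multiples of that number were above the range tried in the data, and the simulation did not test for them. Starts in the table, counted from 0, are printed counted from 1. All 2709 single-gene loci compared overlapped their gene in RefSeq TAIR10.1, which gave symbols, structures and sequences (Biopython 1.88, BLAST+ 2.17.0). Isoform 1 was used, or the longest where there was none.

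The members, gene lists and naming rule were chosen with earlier results of these data known. The rule named all members, the 3 nearest loci for each, the genes beside them and up to 4 listed genes per list with the largest fold, of which 1 root marker is not reported here. The motifs, and the remaining PIP2 and leaf genes named to complete their lists, were chosen after these values were seen.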

Additional observations from a re-analysis of the deposited data

How the results depend on the processing

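Of the 4 listed PIP1 genes, 2 were left with a minimum of 2-fold or of 1.5-fold, and 0 with Bonferroni adjustment, because no listed p, with 5e-05 the lowest, passes when multiplied by 19554. The 2896 lower loci became 748 with 2-fold, 1513 with 1.5-fold and 0 with Bonferroni adjustment. With q under 0.01, 3 members and 2145 loci were left. All 4 members were kept with a minimum of 1 or 5 FPKM in WT, with loci of exactly 1 gene, and without near-identical copies. These settings could not have removed a member. The lowest had 95.02 FPKM in WT, each had a locus of its own and none had such a copy. Pseudocounts of 0.1 and 1 FPKM cannot change a direction and bear on no call here. Set against the median of all listed loci, the log2 fold change was 0.34 for PIP1B and 0.13 for PIP1;4, the opposite sign, since their falls were smaller than that median. PIP1A and PIP1C stayed below it (-0.47 and -0.61). That median is of lower loci alone and is no measure of normalization.

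No paired analysis was possible because the deposited levels pool the libraries of each genotype. Leaving out each replicate could not be run for the same reason. The unknown depth and missing spread limit all comparisons between members.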
